A study of Mus musculus with 4 samples.

Results

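Open chromatin was examined at 9 genes of hemidesmosomes and basement membrane adhesion, in 133 of 82641 regions. The regions were taken by their position at these genes and not by their values, but the genes themselves were listed with earlier results of these data known. Hemidesmosomes are the plaques that rivet basal keratinocytes, the deepest layer of the epidermis, to the basement membrane below them. In each plaque, the integrin made of the alpha6 (Itga6) and beta4 (Itgb4) chains and the transmembrane collagen XVII (Col17a1) bind the laminin of the epidermal basement membrane outside the cell, and plectin (Plec) and the epithelial form of dystonin (Dst, also known as BP230) tie them to keratin filaments inside. Lama3 and Lamb3 encode the alpha3 and beta3 chains of that laminin, and the integrin made of alpha3 (Itga3) and beta1 (Itgb1) is a second laminin receptor of the same cells. JNK1, the product of Mapk8, is a kinase that phosphorylates c-Jun, a subunit of the transcription factor AP-1.

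Open chromatin at these 9 genes was described by ATAC-seq, in which the Tn5 transposase inserts adapters into accessible DNA, in 4 libraries of sorted mouse epidermal cells. The libraries came from 2 WT samples and 2 Mapk8-KO samples, all from skin treated for 8 days with cream containing 5% imiquimod, a TLR7 agonist used to induce psoriasis-like dermatitis, so that no untreated skin was compared. The mice were females of 8 to 12 weeks of age on a C57BL/6 background, with littermates as controls. Mapk8 was deleted from floxed alleles by a Cre driven by the keratin 14 promoter, which is active in basal keratinocytes. The cells were sorted as positive for EpCAM and high for CD49f, and the staining mix also held antibodies to CD45, CD31 and CD140a. Age, strain, Cre and sort are as the study gives them. CD49f is the protein product of Itga6, so the cells of both genotypes were gated on the level of 1 of the genes described here. Libraries are called by genotype and replicate number, and the study calls them independent samples without saying whether they came from separate mice, so the spread between them may be technical in part.

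The merged peaks of the 4 libraries gave 82641 regions, of which 133 overlapped the body of 1 of the 9 genes or the 25 kb on either side of it. Of these, 24 stood no more than 2 kb from a transcription start site of that gene, 68 in its introns, 1 in an exon, 26 upstream and 14 downstream. Intron or exon was decided by the strongest summit and not by overlap. All 4 libraries shared 53 of the 133 regions (39.8%, against 48.6% of all regions), and only these could be compared by level. In total 41 regions lay within 2 kb of a start site of any gene (30.8%, against 26.7% of all regions), of which 17 were at other genes only, such as Pdk1 downstream of Itga6, H3f3b and Unk downstream of Itgb4 and Grina upstream of Plec. A region was therefore assigned by position, and which gene it acts on was not tested.

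Values of the 4 libraries are given in the order WT 1, WT 2, Mapk8-KO 1, Mapk8-KO 2 throughout. Levels are given as the summit pileup, the number of sequenced fragments that cover the summit base of a region. The lists held 69927, 54856, 69583 and 49856 intervals. Relative depth, the median ratio of summit pileup to that of WT 1 over regions called in all 4 libraries, was 1, 0.694, 1.12 and 0.646. By this measure the replicates numbered 2 were shallower in both genotypes. It does not come from read counts, so sequencing depth and enrichment at peaks cannot be told apart in it. At the start site of Mapk8 the pileups were 96, 73, 109 and 90, but where the deleted part lies is not given in the sources used here, so these values do not check the deletion. At Krt14, the highest start site pileup of each library was 38, 17, 199 and 109 fragments. Of its 5 regions 0 were called in all 4 libraries, so these values come from more than 1 start site region. They do not compare the level of a single site between genotypes. Whether the Cre transgene, which uses a keratin 14 promoter, added to them was not tested. Start site regions were called for 4, 4, 4 and 3 of 4 basal keratinocyte markers (Krt5, Krt14, Trp63 and Epcam, with Krt5 missing in Mapk8-KO 2). They were called for 0 of 4 leukocyte markers in every library, including Ptprc, which encodes CD45. However, 2 of 3 endothelial markers (not Cdh5), 2 of 3 fibroblast markers (not Lum) and 3 of 4 melanocyte markers (not Sox10) also had one in every library. These included the genes of the other antigens named in the staining mix, Pecam1 for CD31 (33, 41, 43 and 22 fragments) and Pdgfra for CD140a (41, 26, 58 and 34 fragments). Pileups were also summed by cell type, scaled by the library median as in the fit below and not by relative depth. The basal keratinocyte sum was 132.3 and 109.7 in WT and 259.7 and 229.7 in Mapk8-KO. Krt14, with values from more than 1 region, gave 31.4 and 20.3 of it in WT and 149.4 and 147.3 in Mapk8-KO. The other sums ranged over 73.6 to 90.6 (endothelial), 52.1 to 57.2 (fibroblast) and 114.4 to 116.6 (melanocyte) in WT, and the melanocyte sum was 127 and 162 in Mapk8-KO. The endothelial and fibroblast sums in Mapk8-KO were 87.8 and 82.4, and 61.6 and 60.8. The part of these cell types in the values below was not tested. In bulk libraries, fewer cells of a type and less open chromatin per cell cannot be told apart.

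The sequences below show some of the regions described. Left out, for instance, are those at Lama3 and the region with the highest difference, at the start site of Grina upstream of Plec. They are windows of 121 bases centred on the strongest summit, read from the mouse genome of the build of the files (mm10), and capitals mark the AP-1 site (TGACTCA or its reverse complement TGAGTCA) or a p53-family pair, the double motif read by p63. The first group holds regions with an AP-1 site at Itga6, Itgb1 and Lamb3. The region far upstream of Itgb1 and those near the Lamb3 start sites were chosen after their values were seen.
Itga6 intron region, chr2:71790331-71790451, strand +: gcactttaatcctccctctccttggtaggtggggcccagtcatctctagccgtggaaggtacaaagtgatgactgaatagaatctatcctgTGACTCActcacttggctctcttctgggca
Itgb1 upstream region, chr8:128666935-128667055, strand +: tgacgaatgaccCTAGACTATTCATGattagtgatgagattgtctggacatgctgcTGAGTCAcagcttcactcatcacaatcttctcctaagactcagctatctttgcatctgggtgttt
Lamb3 start site region, chr1:193301410-193301530, strand +: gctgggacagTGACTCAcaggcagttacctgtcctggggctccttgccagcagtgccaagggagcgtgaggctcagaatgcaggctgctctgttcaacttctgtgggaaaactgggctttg
Lamb3 region ahead of the start sites, chr1:193298317-193298437, strand +: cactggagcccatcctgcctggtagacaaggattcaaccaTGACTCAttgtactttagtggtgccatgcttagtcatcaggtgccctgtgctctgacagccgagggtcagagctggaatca

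The second group holds regions with fitted values below WT in Mapk8-KO or with calls in 1 genotype only.
Dst first start site region, chr1:33907956-33908076, strand +: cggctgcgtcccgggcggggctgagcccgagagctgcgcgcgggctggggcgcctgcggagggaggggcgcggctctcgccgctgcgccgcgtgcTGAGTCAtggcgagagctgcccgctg
Dst intron region, chr1:34186151-34186271, strand +: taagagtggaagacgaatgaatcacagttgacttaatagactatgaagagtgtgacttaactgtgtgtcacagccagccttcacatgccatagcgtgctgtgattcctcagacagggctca
Itgb1 intron region, chr8:128703734-128703854, strand +: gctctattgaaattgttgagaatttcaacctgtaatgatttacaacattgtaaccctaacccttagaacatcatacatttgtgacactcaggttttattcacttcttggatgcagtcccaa
Lamb3 record, called in WT only, chr1:193227229-193227349, strand +: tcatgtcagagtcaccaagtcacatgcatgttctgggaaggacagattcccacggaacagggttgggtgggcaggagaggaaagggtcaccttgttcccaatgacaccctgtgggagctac
Col17a1 upstream, called in Mapk8-KO only, chr19:47708098-47708218, strand +: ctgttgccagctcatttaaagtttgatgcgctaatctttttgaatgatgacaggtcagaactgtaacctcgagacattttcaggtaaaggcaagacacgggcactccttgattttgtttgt

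The last window is shown because the summit of the strongest region inside Col17a1 fell in a tandem repeat, in which 1 short unit recurs along the whole window. How reads were placed in it was not tested.
Col17a1 intron region, chr19:47655036-47655156, strand +: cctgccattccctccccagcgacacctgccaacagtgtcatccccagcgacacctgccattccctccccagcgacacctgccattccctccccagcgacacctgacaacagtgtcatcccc

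The first comparison asked whether the regions were called at all in each genotype. The 4 libraries called 108, 82, 112 and 66 of the 133 regions, or 81.2, 61.7, 84.2 and 49.6%, against 83.8, 65.2, 83.2 and 59.1% of all regions. Calls fell with depth in both genotypes, and Mapk8-KO 2, the shallowest library, had the fewest. Of the 133 regions, 29 were called in 1 library (21.8%, against 21.7% of all regions), 26 in 2 (19.5%, against 14.0%) and 25 in 3 (18.8%, against 15.7%). The pair made of both replicates numbered 1 shared 18 regions that no other library called (13.5%, against 7.91% of all regions), and the pair numbered 2 shared 0.

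**Figure D1:**
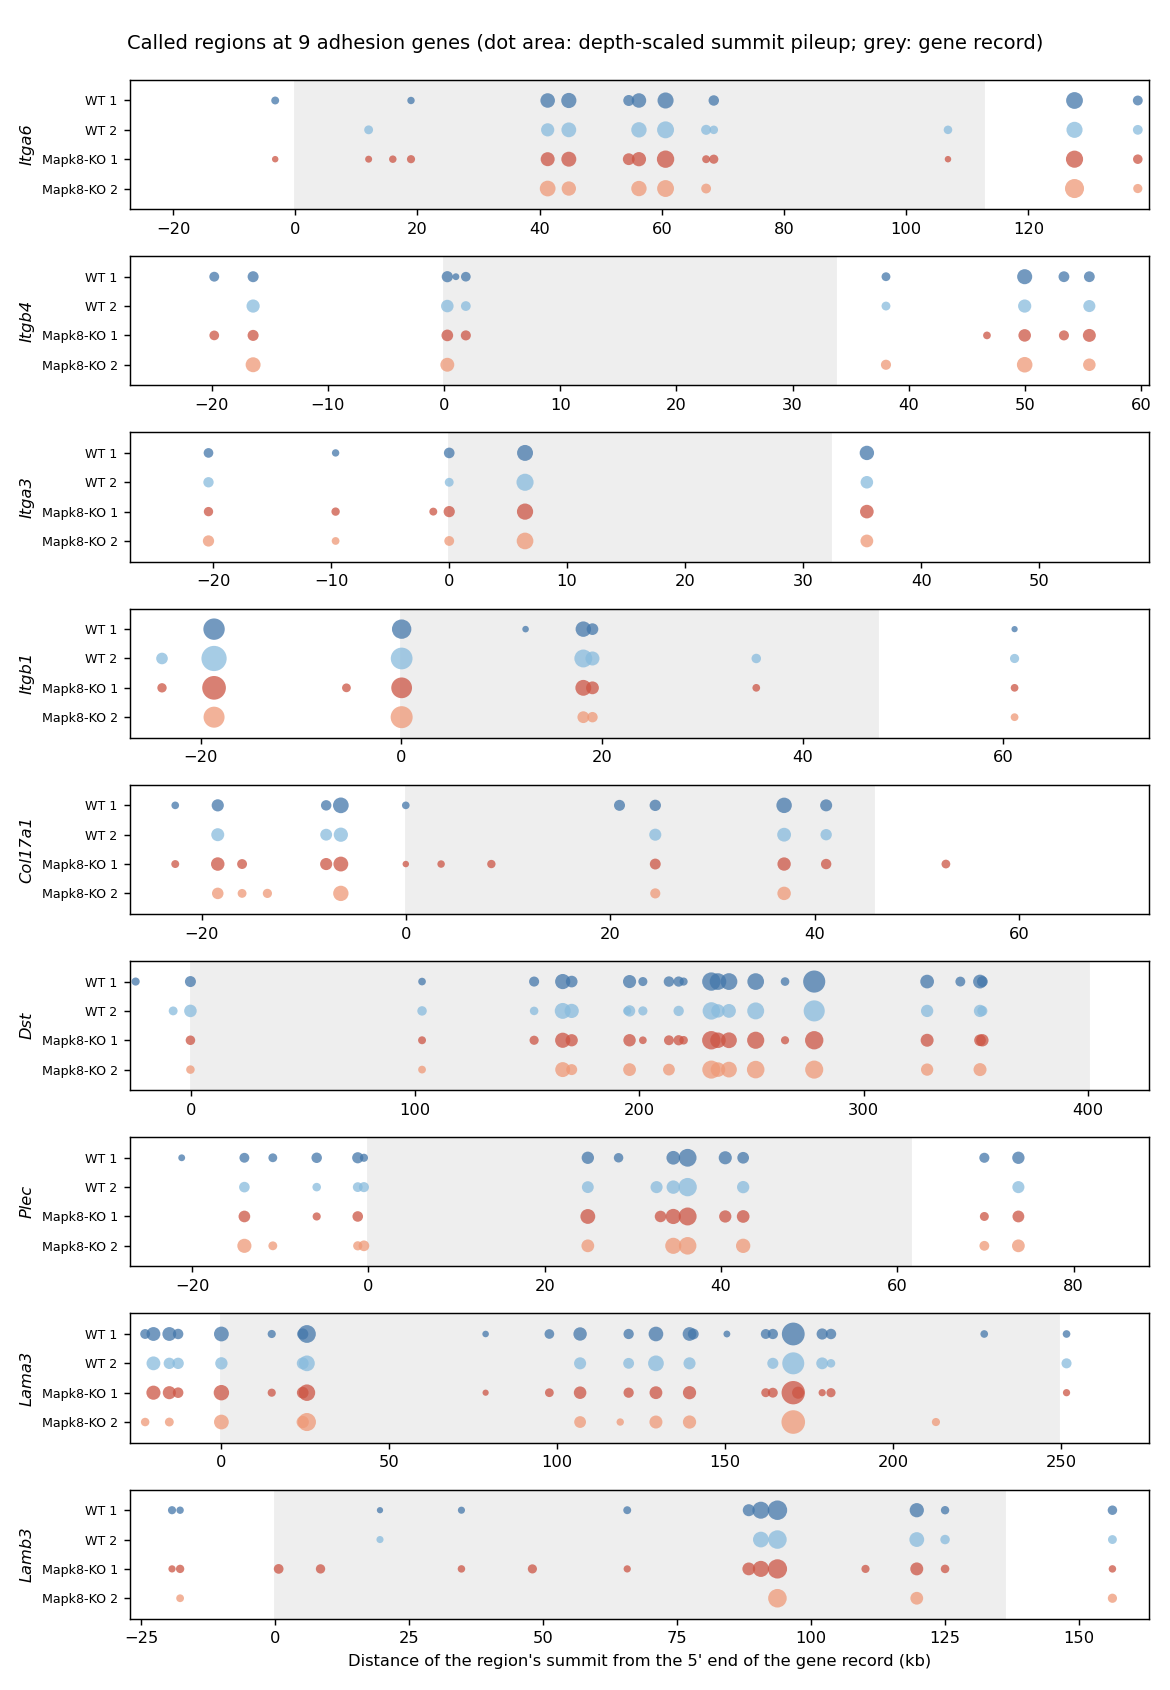
Called regions along the 9 genes. Each panel is a gene, the x axis is the distance of the region's summit from the 5′ end of the gene record in kb, the grey band is the record, each row is a library, and the dot area is the summit pileup divided by relative depth. Most of the large dots recur in all 4 rows, with exceptions such as the Lamb3 region of 74, 44 and 74 fragments that has no dot for Mapk8-KO 2, and the Mapk8-KO 2 row holds the fewest dots (66, against 108, 82 and 112).

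Only 1 of the 133 regions had a call in each WT library and none in Mapk8-KO (0.752%, against 2.17% of all regions). It lay in an intron of the long Lamb3 record, chr1:193226958-193227382, with 10 and 9 fragments at its summit in WT, close to the lowest pileup listed in Mapk8-KO 2 (8). The nearest start site was that of Hsd11b1, 14309 bp away. In the reverse direction 1 region was called in both Mapk8-KO libraries only (0.752%, against 1.65% of all regions). It lay upstream of Col17a1, at -16064 bp from the start site (chr19:47707913-47708304), with 28 and 13 fragments in Mapk8-KO 1 and 2. Both counts are near or under the share over all regions and rest on low pileups. With each library left out in turn, the WT count ranged from 3 to 20 and the Mapk8-KO count from 2 to 14, with the highest WT count without Mapk8-KO 1, that is, against Mapk8-KO 2 alone. The 20 were 16.4% of the regions, against 13.2% of all regions. The highest Mapk8-KO count was that without Mapk8-KO 2 (10.7%, against 10.3%).

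A missing call in the shallow libraries was more frequent. Beside the 18 regions called in the replicates numbered 1 only, 18 of the 133 regions (13.5%, against 9.91% of all regions) were called in every library but Mapk8-KO 2. They were spread over 7 genes, with 7 at Lama3, 4 at Dst, 2 each at Col17a1 and Lamb3 and 1 each at Itga6, Itgb4 and Plec. Their pileups were 15 to 74 in WT 1 (median 28), 13 to 44 in WT 2 (median 18.5) and 15 to 74 in Mapk8-KO 1 (median 28.5). These are the libraries in which the regions had to be called, so the values describe how strong the missing regions were elsewhere. The strongest lay ahead of the Lamb3 start sites (chr1:193298279-193298509, with an AP-1 site), with 74, 44 and 74 fragments and no call in Mapk8-KO 2. Missing in WT 2 alone were 4 regions (3.01%, against 4.86% of all regions), in WT 1 alone 1 (0.752%, against 0.558%) and in Mapk8-KO 1 alone 2 (1.5%, against 0.382%). Since 1 shallow library carried this pattern, genotype and library cannot be told apart in it.

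**Figure D2:**
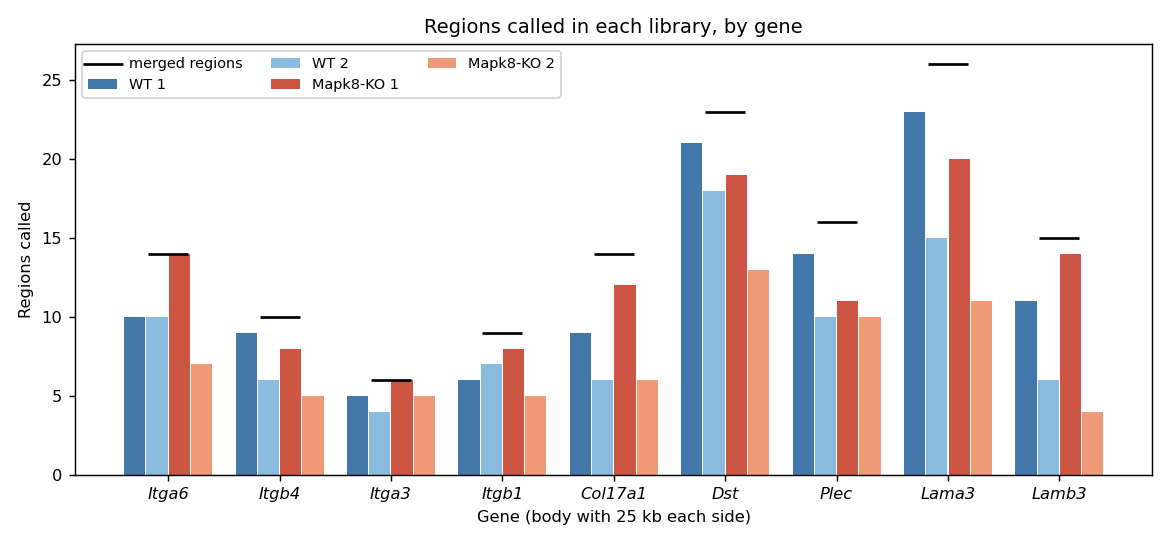
Regions called per gene and library. Bars give the number of regions called in each of the 4 libraries at each gene with 25 kb on either side, and the black lines give the merged regions of the gene. At Lama3, 23, 15, 20 and 11 of 26 regions were called, and at Lamb3 11, 6, 14 and 4 of 15.

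The next comparison was of level, over the 53 regions that all libraries shared. The measure was the summit pileup, centred for depth on a log2 scale and fitted with limma across all 40159 shared regions. None of the 53 passed an adjusted p of 0.05, against 0.605% of all regions, and the lowest adjusted p among them was 0.28. At an unadjusted p of 0.05, 5 of 53 passed (9.43%, against 11.3% of all regions). The fitted differences, Mapk8-KO minus WT, ran from -0.72 to 0.70, with SEs of 0.17 to 0.34, and their median was 0.04, beside 0.05 over all regions. All 53 estimates lay within a 2-fold difference, and for 51 the whole 95% interval did. Limma's SEs and intervals rest mostly on a variance pooled over all shared regions, and little on the spread of each region's own samples. With 2 samples a genotype, the count of 51 therefore cannot exclude a 2-fold change in a given region. Of the 53 regions, 31 had a fitted value above 0 (58.5%, against 57.4% overall). In 11 both Mapk8-KO values lay above both WT values (20.8%, against 24.6% of all regions), and in 6 both lay below (11.3%, against 16.9%). Without Mapk8-KO 1, limma called 2 of the 53 (3.77%, against 4.28% of all regions), the Itgb1 intron region and the Grina start site region described below, with 9 at an unadjusted p of 0.05 (17.0%, against 19.6%). In that fit Mapk8-KO 2 stood alone against WT and was assumed to vary as the WT libraries did. Without WT 1, WT 2 or Mapk8-KO 2 the median difference of the 53 regions was 0.073, 0.028 and 0.022. Over all regions it was 0.049, 0.042 and 0.026 in those fits.

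**Figure D3:**
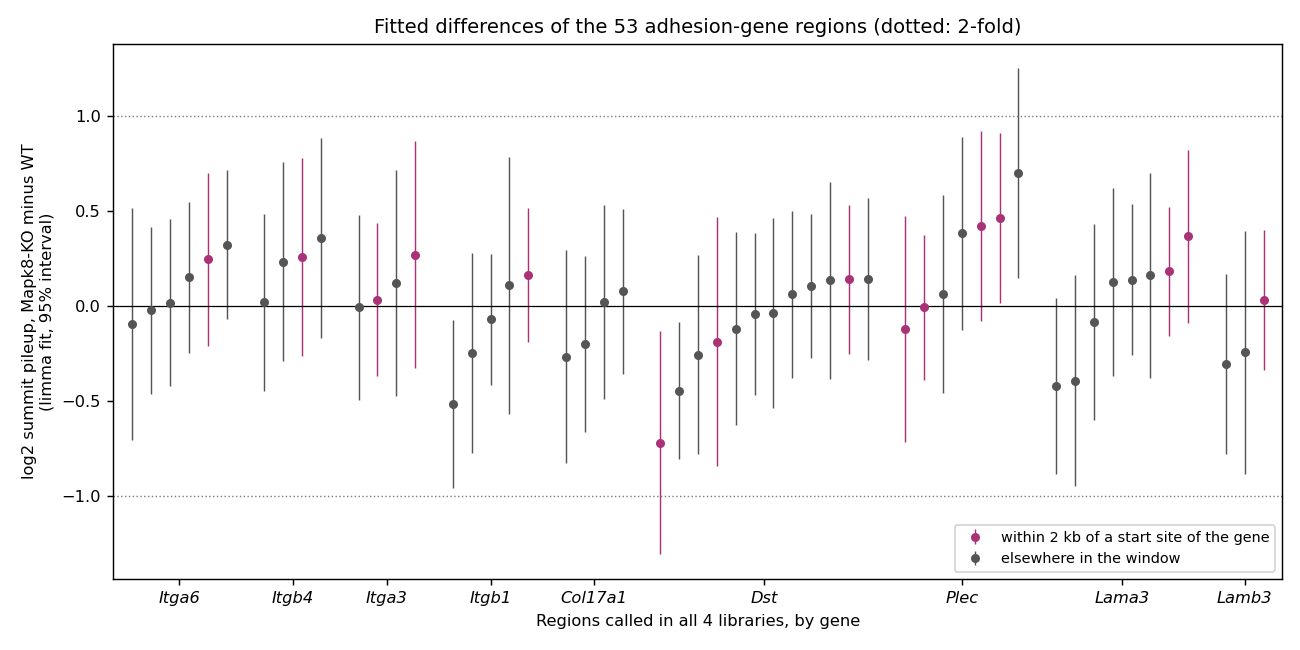
Fitted differences of the 53 regions called in all 4 libraries. The x axis groups the regions by gene, the y axis is the log2 difference in summit pileup, Mapk8-KO minus WT, with its 95% interval from limma, colour marks regions within 2 kb of a start site of the gene, and dotted lines mark a 2-fold difference. The estimates run from -0.72 at Dst to 0.70 upstream of Plec, and the other 51 intervals stay between the dotted lines.

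A second measure did not depend on depth to first order. Each region was given its percentile by fold enrichment over the local background, within the library, among the 40159 shared regions. A genotype ranked higher where both of its percentiles exceeded both of the other's by 10 points or more. Higher in WT were 2 of 53 regions (3.77%, against 4.65% of all regions), 1 at Dst and 1 at Lama3. Higher in Mapk8-KO was 1 of 53 (1.89%, against 4.07%), the Grina start site. With all 4 libraries these shares are under those of all regions. With 1 library left out the WT count was 4 to 10 and the Mapk8-KO count 4 to 6. The count of 10, without WT 1, was 18.5% of 54 regions, against 11.8% of all regions. Without WT 2, Mapk8-KO 1 or Mapk8-KO 2 the WT shares were 7.02, 12.7 and 8.45%, against 11, 15.3 and 10.0%. Those of Mapk8-KO were 7.02 to 9.26%, against 10.0 to 16.0%. The median percentiles of the 53 regions were 37.5, 41.7, 34.0 and 41.8. Their local background stood above that of all regions (medians 5.25 against 4.36 in WT 1 and 5.91 against 4.76 in Mapk8-KO 1, for instance), while their median pileup percentiles were 49.9, 44.5, 45.3 and 49.6.

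**Figure D4:**
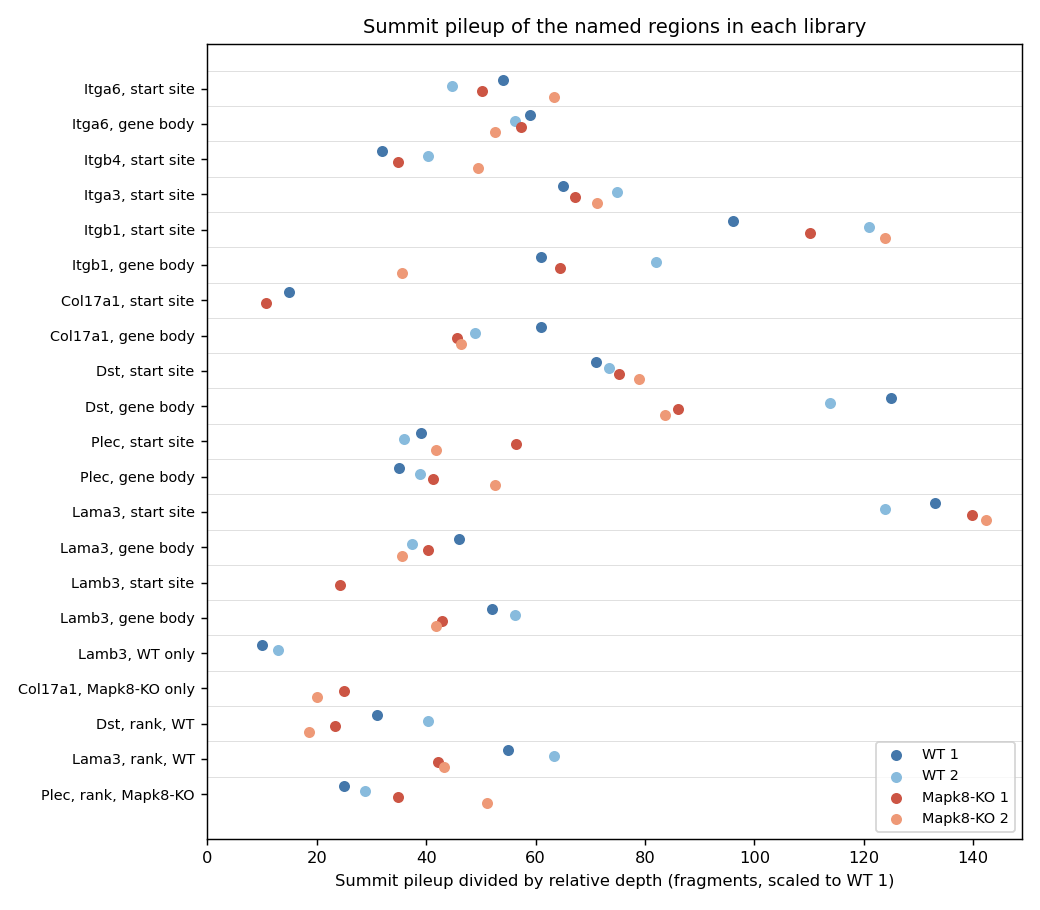
Summit pileup of the named regions. The x axis is the pileup divided by relative depth, in fragments scaled to WT 1, each row is a region, and each dot is a library, with no dot where the library had no call. The widest gaps between genotypes are at the Dst intron, where both WT dots lie right of both Mapk8-KO dots, and the WT and Mapk8-KO dots are mixed in the Itga3 and Itga6 rows.

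Itga6 encodes the chain on which the cells were sorted. Its start site region (chr2:71786665-71787476, summit 12 bp from a start site) held 54, 31, 56 and 41 fragments, and the genotypes overlapped after scaling. Limma gave a difference of 0.25 (SE 0.23, adjusted p = 0.73). The region 3413 bp into the gene that carries the AP-1 site shown above (chr2:71790291-71790515) held 59, 39, 64 and 34 fragments, a difference of -0.02 (SE 0.22). The start site thus lay at percentiles 35.9, 28.7, 24.8 and 41.9 of all shared regions, and the intron region at 39.0, 43.5, 31.1 and 20.9. Of 14 regions at Itga6, 6 were shared by all libraries, with differences of -0.09 to 0.32. The highest was the start site of Pdk1, a gene downstream of it, with 72, 46, 84 and 60 fragments. The GENCODE record of Itga6 starts ahead of the start sites used, and 3 of its regions in that leading stretch were called in 1 or 2 libraries, with 14 to 19 fragments.

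Itgb4, the partner chain of alpha6 in the hemidesmosome, had 10 regions and 4 shared ones. Its start site region (chr11:115974465-115975247, with an AP-1 site) held 32, 28, 39 and 32 fragments, with percentiles of 22.5, 41.7, 34.0 and 55.7. The difference was 0.26 (SE 0.27, adjusted p = 0.76), and the range of the 4 was 0.02 to 0.36. No region was called inside the gene beyond 2 kb of its start sites. A second start site region (chr11:115976318-115976670) was called in 3 libraries with 24, 17 and 29 fragments and was missing in Mapk8-KO 2.

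Itga3 and Itgb1, which together form a laminin receptor outside the hemidesmosome, differed in strength. The strongest Itga3 region (chr11:95070115-95070842) lay at an internal start site and held 65, 52, 75 and 46 fragments, whereas the region at the first start site (chr11:95076485-95077071) held 29, 14, 36 and 16. Their differences were 0.03 (SE 0.21) and 0.27 (SE 0.30). The direction of the first, close to 0, changed under 4 of the alternatives. As at Itgb4, no region was called inside Itga3 away from its start sites. The single start site region of Itgb1 (chr8:128685295-128686375) was strong, with 96, 84, 123 and 80 fragments and percentiles of 81.2, 90.1, 76.1 and 94.5. The difference was 0.16 (SE 0.18, adjusted p = 0.78). Further upstream, at -18659 bp from the start site, the region with an AP-1 site and a p53-family pair (chr8:128666566-128667265) held 117, 113, 160 and 73 fragments, with percentiles of 86.3, 98.6, 91.8 and 96.8 and a difference of -0.07 (SE 0.17).

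The intron region of Itgb1 behaved differently between the Mapk8-KO libraries. This region (chr8:128703399-128704027, 18140 bp from the start site) held 61, 57, 72 and 23 fragments. The low value was that of Mapk8-KO 2, and Mapk8-KO 1 lay between both WT values after scaling. The percentiles were 58.5, 56.8, 55.5 and 29.1. Limma gave -0.51 (SE 0.22, adjusted p = 0.34) and -0.22 with fold in place of pileup. The difference was -0.91 without Mapk8-KO 1, that is, for Mapk8-KO 2 alone against WT (adjusted p = 0.0153), and -0.12 without Mapk8-KO 2 (adjusted p = 0.99). The neighbouring region, just downstream (chr8:128704515-128705163, with a p53-family pair), held 35, 35, 47 and 18 fragments, a difference of -0.25 (SE 0.27).

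Col17a1, the transmembrane collagen of the plaque, was not marked by a strong start site. Its start site region (chr19:47691976-47692228) held 15 and 12 fragments in the replicates numbered 1 and was not called in those numbered 2. Of 14 regions 4 were shared, all away from the start site, with differences of -0.26 to 0.08. The strongest inside the gene was that in the tandem repeat (chr19:47654883-47655372), with 61, 34, 51 and 30 fragments and a difference of -0.20 (SE 0.24, adjusted p = 0.80). Among all 133, the only region away from the gene's start sites with its strongest summit in an exon (chr19:47667446-47667970) held 33, 26, 34 and 17 fragments. Both WT values lay above both Mapk8-KO values after scaling (-0.26, SE 0.29). Upstream of the gene, the region at -6395 bp from the start site (chr19:47698208-47698841) held 63, 36, 63 and 39 fragments, at percentiles of 62.9, 57.5, 60.2 and 71.4.

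Dst, whose long gene also encodes neuronal and muscle forms, held 23 regions, of which 12 were shared. The start site with the strongest region (chr1:34159631-34160479, TSS 34160330) is an internal one, and this region held 71, 51, 84 and 51 fragments, at percentiles of 48.6, 60.6, 52.1 and 62.3. Its difference was 0.14 (SE 0.20, adjusted p = 0.84). The estimate was of the other sign at the first start site of the record (chr1:33907610-33908254), which is shared with Bend6, a neighbouring gene whose start site lay 200 bp from the summit. This region, with the AP-1 site shown above, held 31, 28, 26 and 12 fragments, at percentiles of 60.9, 68.1, 32.7 and 10.6. Both WT values lay above both Mapk8-KO values after scaling. The difference was -0.72 (SE 0.30), the lowest of the 53, and did not pass (adjusted p = 0.31). The adjusted p was 0.137 to 0.95 with 1 library left out. Another start site region (chr1:34011099-34011599) was weak, with 15, 16, 18 and 10 fragments.

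The strongest region of Dst lay in an intron, 25881 bp from the internal start site (chr1:34186038-34186505). It held 125, 79, 96 and 54 fragments, at percentiles of 98.7, 99.3, 90.7 and 97.1, so it ranked near the top of the shared regions in every library. Both WT values were above both Mapk8-KO values after scaling, with a difference of -0.44 (SE 0.18, unadjusted p = 0.016, adjusted p = 0.30 by limma), and of -0.22 with fold in place of pileup. The window shown above holds none of the motifs searched. The remaining Dst regions shared by all libraries differed by -0.26 to 0.15, and the 12 had a median of -0.04.

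Plec, the linker to keratin, has 12 annotated start sites and anchors the plaque from inside. Its 7 shared regions differed by -0.12 to 0.70, with a median of 0.38 beside 0.05 over all regions, and none passed the test. Without the region at the Grina start site the other 6 had a median of 0.22. At the start site with the highest fold (chr15:76207286-76208370) the pileups were 39, 25, 63 and 27, and at another (chr15:76197695-76199207) they were 48, 32, 66 and 43. Mapk8-KO values lay above WT values in both after scaling, with differences of 0.42 (SE 0.25, adjusted p = 0.54) and 0.46 (SE 0.23, adjusted p = 0.42). The first was 0.09 with fold in place of pileup, and its fold percentiles were 15.3, 18.8, 31.6 and 11.3, with Mapk8-KO 2 below both WT libraries. The intron region (chr15:76189909-76190443) held 35, 27, 46 and 34 fragments, a difference of 0.38 (SE 0.26). The pair of measures disagreed at this gene. The region at chr15:76195970-76196928 held 81, 60, 92 and 51 fragments, yet its fold percentiles were 5.29, 11.3, 4.34 and 3.21. The 7 regions had median fold percentiles of 8.06, 11.3, 9.89 and 11.3 beside median pileup percentiles of 34.6, 33.3, 40.0 and 55.6, and their median local background was 5.74, 3.29, 7.44 and 4.51, above that of all regions in each library (4.36, 2.88, 4.76 and 2.68).

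The highest difference among the 53 regions stood upstream of Plec, at the start site of Grina and not at Plec itself. It held 25, 20, 39 and 33 fragments, at percentiles of 27.8, 37.5, 58.2 and 70.1, and both Mapk8-KO values lay above both WT values after scaling. The difference was 0.70 (SE 0.28, adjusted p = 0.28), and 1.01 without Mapk8-KO 1 (SE 0.33, adjusted p = 0.0491). Without Mapk8-KO 2 it was 0.40 (adjusted p = 0.98). The region belongs by position to another gene and enters here because it lies within 25 kb of Plec.

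Lama3 had the most regions, 26, of which 8 were shared. Their median fold percentiles of 77.5, 58.9, 72.4 and 68.5 were above those of the other 8 genes in every library. By pileup the order differed. The median pileup percentiles at Lama3 were 53.8, 34.5, 44.7 and 46.1, below those at Itga6 in every library (59.3, 61.9, 57.9 and 67.3). The start site with the strongest region (chr18:12503762-12504300), an internal one with an AP-1 site, held 133, 86, 156 and 92 fragments. Its percentiles were 78.5, 85.0, 81.6 and 90.6, and both Mapk8-KO values lay slightly above both WT values after scaling (0.18, SE 0.17, adjusted p = 0.74). The first start site (chr18:12333582-12334265) held 56, 27, 68 and 36 fragments, a difference of 0.37 (SE 0.23). The estimate was of the other sign in an intron region (chr18:12462963-12464014), which held 55, 44, 47 and 28 fragments at percentiles of 78.3, 77.0, 57.6 and 64.4 and differed by -0.42 (SE 0.24, adjusted p = 0.51), or -0.26 with fold in place of pileup. The intron region with the highest percentiles (chr18:12440470-12440997) held 46, 26, 45 and 23 fragments, at percentiles of 92.5, 70.0, 82.4 and 63.4, a difference of -0.08 (SE 0.26). No sequence is shown for this gene.

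Lamb3, the partner chain of Lama3, had 15 regions and 3 shared ones. By the highest mean fold, its start site region was 1 at a distal start site (chr1:193208308-193208591), called with 27 fragments in Mapk8-KO 1 alone. The other 2 start sites shared a region (chr1:193301186-193302228, with the AP-1 site shown above) that held 97, 61, 106 and 57 fragments, a difference of 0.04 (SE 0.19, adjusted p = 0.97), and that was chosen here after its values were seen. Its fold percentiles were only 27.1, 25.3, 24.7 and 36.5. The strongest region in the gene body (chr1:193326919-193327720) held 52, 39, 48 and 27 fragments, and both WT values lay above both Mapk8-KO values after scaling (-0.30, SE 0.24, adjusted p = 0.68). The long Lamb3 record also spans Hsd11b1 and G0s2, whose start site regions held 13 and 16 fragments in WT 1 and 16 and 15 in Mapk8-KO 1 and were called in neither replicate numbered 2.

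Regions at the start sites and elsewhere were compared by their medians. The 15 shared regions within 2 kb of a member's start site had a median difference of 0.16, and the other 38 had one of 0.02, beside 0.05 over all regions. An AP-1 site within 100 bp of the strongest summit was found in 32 of 133 regions (24.1%, against 23.7% of all regions), and among regions away from any start site in 29.3%, against 28.0%. Of the 32, 12 were shared by all libraries (37.5%, against 50.1% of all regions with a site). Their median difference was -0.01, beside -0.08 over all shared regions with a site, and without a site the medians were 0.08 and 0.09. A p53-family pair was found in 15 regions (11.3%, against 8.78%) and a TEAD site (GGAATGT or ACATTCC) in 4 (3.01%, against 3.89%). A CREB/ATF site (TGACGTCA) and a GRHL site (AACCGGTT, AACCTGTT or AACAGGTT) were found in 0, against 0.772% and 1.77% of all regions. Both strands were searched, and a match is a match of letters only.

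Other genes of the same structures, a list of 17 that included nidogens, perlecan, collagen VII, further integrins and the basal keratins, were read in the same way. They had 181 regions and 94 shared ones, of which limma called 0 higher and 0 lower in Mapk8-KO, against 0.605% of all regions. With so low a share over all regions, the 0 says little about these genes. Their median difference was 0.00222. Called in 1 genotype only were 1 region in WT (in Itgav, 35 and 30 fragments) and 1 in Mapk8-KO (in Itgb5, 26 and 13 fragments), or 0.552% each, against 2.17 and 1.65% of all regions. By rank, 4 of 94 were higher in WT (4.26%, against 4.65%) and 2 in Mapk8-KO (2.13%, against 4.07%), the latter 1 at Itgb6 and 1 downstream of Lama5, near Adrm1.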

How the data were processed

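ATAC-seq was analysed in 4 libraries (2 WT, 2 Mapk8-KO), for which the authors deposited 1 narrowPeak list per library. The study's methods give mapping to mm10 with Bowtie2, removal of multiply mapped and low-quality reads with samtools, and peak calling with MACS2 on paired-end fragments at a q of 0.05 with summits. The submitters' processing notes also name Trimmomatic 0.36 and STAR 2.5.3, which the methods tie to RNA-seq. Read counts were not used here. The deposited lists hold the fold ratio of summit pileup over local background, the -log10 p-value and -log10 q-value, an integer score that was not tested, and positions. The highest q in a list was 0.0097.

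The summit pileup was solved from the fold and the -log10 p-value, and came out whole, within 0.05, for at least 99.996% of peaks. Since summits are called per library, a region's strongest summit may shift between libraries. Peaks were merged at an overlap of 1 bp. Start sites were those of GENCODE M21 (basic set), of the same assembly as mm10. The log2 pileup of the 40159 regions called in all 4 libraries, centred on the library median, was fitted with limma 3.58.1 in R 4.3.3 with a variance trend, and p-values were adjusted by Benjamini-Hochberg over all of them. The fit and the recovery of pileups were tested on simulated data. Fold percentiles were taken within each library. Intervals are 95%. With 2 samples a genotype, an exact permutation test of a single region cannot pass 0.05, and none was used.

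Regions named were, per gene, the start site region with the highest mean fold, the gene body region beyond 2 kb of start sites with the highest mean percentile, and regions called in 1 genotype only, separated by 10 points in rank or called by limma, and any other was chosen after its values were seen. The members, gene lists and motifs were chosen with earlier results of these data known. Alternatives were the fold in place of pileup, quantile normalization, a minimum mean pileup of 30, no variance trend, the replicate block, other call thresholds, overlaps, windows and rank gaps, and leaving out each library.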

Additional observations from a re-analysis of the deposited data

How the results depend on the processing

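Limma called 243 of all regions (44 higher and 199 lower in Mapk8-KO). The count was 0 with fold in place of pileup and 0 without a variance trend (2731 and 3987 regions at an unadjusted p of 0.05), 29 with quantile normalization, 94 with centring on the median log2 ratio, a scaling chosen after seeing the data, and 386 with the replicate block, and it ranged from 6 to 1717 with 1 library left out. Among the 53 shared regions at the 9 genes it was 0 in the fits with all 4 libraries and ranged from 0 to 2 with 1 left out, 2 without Mapk8-KO 1. Their median difference was -0.013 with the median ratio centring, where that of all regions was 0.0053, and ranged from 0.0215 to 0.109 with 1 library left out. 

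For the call and rank counts below, shares over all regions were computed only under the main settings and with 1 library left out. The other settings therefore do not show whether a shift is particular to these genes. The regions compared for calls were 105 with lists of equal length or a window of 10 kb, and 90 with the gene body alone. The count called in WT only was 0 at a q of 0.001, 2 with lists of equal length and 2 with at least 50% of the region covered, and 3 to 20 with 1 library left out. The count called in Mapk8-KO only was 0 with lists of equal length, with 50% covered, with a window of 10 kb and with the gene body alone, and 2 to 14 with 1 library left out. The count ranked higher in WT was 4 at a gap of 5 points, 1 at 20 points and 4 to 10 with 1 library left out, and that in Mapk8-KO was 2 at 5 points, 2 by -log10 p, 2 with the replicate block, 0 with a window of 10 kb, 0 with the gene body alone and 4 to 6 with 1 library left out. With fold in place of pileup, other named differences that moved by over 1.5 times were 0.01 (Itga6 start site), -0.25 (Itga6 intron), 0.04 (Itgb1 and Dst start sites), -0.04 (Col17a1 intron), 0.10 (Lama3 start site), -0.16 (Lama3 intron) and 0.24 (Plec intron). In 168 refits of 17 named regions, 157 kept the direction and the side of the threshold and 2 passed it (without Mapk8-KO 1). The sign turned in 9, all within 0.07 of 0. These were the Itga6 intron (-0.0551 to 0.0149 with 1 library left out, positive without WT 1 or Mapk8-KO 2), the start sites of Itgb4 (-0.0221 to 0.541, negative without Mapk8-KO 2) and Itga3 (-0.0476 with fold, -0.0133 with the median ratio centring, and -0.0677 to 0.138 with 1 library left out, negative without WT 1 or Mapk8-KO 2), the Itgb1 start site (-0.0035 to 0.331, negative without WT 1) and the Lama3 intron (-0.232 to 0.0638, positive without WT 1). Within 50 bp of the summit the share of regions with a p53-family pair was 6.77%, against 4.76% of all regions. The cause of these shifts was not tested.

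No label says whether a replicate number marks a shared litter, day or batch. Across the shared regions, the changes from replicate 1 to 2 in WT and in Mapk8-KO had a Pearson r of 0.0392. That value rests on centred pileups of shared regions only, so it cannot decide whether the samples were paired. The replicate block called 0 of the 53 regions, and 386 of all regions against 243 without it. The replicates numbered 2 were the shallowest and had the fewest calls, and whether depth accounts for the missing calls was not tested. Pileups of 8 to 20 fragments lie near the limit of calling, so that a missing call there is no measure of closed chromatin.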
